A study of Mus musculus with 295 samples.

Results

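Chemokines and chemokine receptors are the signals and sensors that place leukocytes in a tissue, and they were followed here in the adipose tissue of 295 F2 mice. The members are the genes whose symbol in the platform's probe table begins with the chemokine ligand or receptor stem and a number, with a probe measured in at least 90% of the mice. That rule found 52 genes of the 11454 measured, namely 33 ligands and 19 receptors, of which 4 are atypical receptors. All 56 probes of these genes passed the filter, and the probe measured least often had a value in 96.61% of the mice.

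The mice came from a cross of C57BL/6J with C3H/HeJ, and both parental lines lacked functional ApoE, so every mouse of the cross was ApoE null. All were given a high-fat Western diet between weeks 8 and 24 of age. RNA of each mouse was labelled with Cy3 and set against a pool of all the RNAs labelled with Cy5 on 1 array per mouse. Both sexes are included, but the labels give no sex, genotype, weight or adipose depot for a single mouse, so all mice form 1 group, no groups were compared, and each array is a different mouse.

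Chemokines are small secreted proteins that bind G protein-coupled receptors on leukocytes and draw those cells along a gradient. Atypical receptors bind chemokines without that signalling, and several of them take chemokines out of the tissue fluid. In the adipose tissue of mice on a high-fat diet, Ccl2 and its receptor Ccr2 are known for bringing in monocytes, which become macrophages, and lymphoid chemokines such as Cxcl13 mark small clusters of B and T cells in fat.

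The 4 sequences shown next belong to 2 neighbouring gene pairs of mouse chromosome 5 that followed different leukocyte signals in these mice. Each is the window of 250 bases upstream of the gene's start, 5′ to 3′ on the gene's strand, from RefSeq on GRCm38.p6, and capitals mark the bases that match a searched motif. Cxcl9 lies at chr5:92328080-92328329 and Cxcl10 at chr5:92348890-92349139, both on the minus strand. Cxcl1 lies at chr5:90890995-90891244 and Cxcl2 at chr5:90903649-90903898, both on the plus strand.
Cxcl9: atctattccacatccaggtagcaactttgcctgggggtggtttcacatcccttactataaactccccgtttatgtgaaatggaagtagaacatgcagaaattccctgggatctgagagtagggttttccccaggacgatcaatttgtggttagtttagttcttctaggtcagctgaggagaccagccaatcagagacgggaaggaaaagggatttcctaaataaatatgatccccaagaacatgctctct
Cxcl10: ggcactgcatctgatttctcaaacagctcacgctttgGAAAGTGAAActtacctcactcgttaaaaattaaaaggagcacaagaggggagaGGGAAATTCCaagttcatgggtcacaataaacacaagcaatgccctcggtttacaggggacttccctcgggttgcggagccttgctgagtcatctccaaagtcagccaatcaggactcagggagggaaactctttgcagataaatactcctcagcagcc
Cxcl1: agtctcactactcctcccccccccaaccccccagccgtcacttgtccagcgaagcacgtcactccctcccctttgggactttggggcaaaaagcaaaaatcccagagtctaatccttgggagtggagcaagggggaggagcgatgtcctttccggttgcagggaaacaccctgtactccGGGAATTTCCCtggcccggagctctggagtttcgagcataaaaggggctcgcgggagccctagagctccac
Cxcl2: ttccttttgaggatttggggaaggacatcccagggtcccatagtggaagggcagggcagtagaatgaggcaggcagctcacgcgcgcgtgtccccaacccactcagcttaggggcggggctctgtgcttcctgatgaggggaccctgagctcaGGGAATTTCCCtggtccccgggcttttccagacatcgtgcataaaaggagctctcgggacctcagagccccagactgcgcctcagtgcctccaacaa
Windows were found for 40 of the 52 genes. The interferon-stimulated response element was searched as GAAA, any 2 bases and GAAA, the kappaB site as GGGA, any 2 bases and TTCC, and the gamma-activated sequence as TTC, any 3 bases and GAA, each on both strands. In the Cxcl10 window the response element began 213 bases before the start and the kappaB letters 159 bases before it. The capitals of Cxcl1 and of Cxcl2 are each a pair of overlapping kappaB matches, 1 on each strand, that began 71 bases before the start in Cxcl1 and 97 bases before it in Cxcl2. The Cxcl9 window held none of the 3 motifs in these letters. The response element stood in 3 of the 40 genes (7.5%), Ccl19, Cxcl10 and Cxcl14, against 2.98% of all 32851 windows. The kappaB letters stood in 4 genes (10.0%), Ccl1, Cxcl1, Cxcl10 and Cxcl2, against 1.21% of all windows. The gamma-activated letters also stood in 4 (10.0%), Ccl17, Ccr1l1, Ccr6 and Cxcl14, near the 7.02% of all windows. Shares of members count genes, while the background counts windows. A match describes the letters and is not a binding site.

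Values are log2 ratios of a mouse over the pool, so 0 is the level of the pool and 1 is a doubling of it. They give no absolute level, and levels cannot be set against each other between genes. In bulk tissue, fewer cells of a type and less RNA per cell cannot be told apart. Some arrays stand apart. Transcripts of the epididymis, an organ that adjoins the fat around the testis, split the arrays into 48 with such transcripts and 247 without, with no array scoring between 0.353 and 1.67. The Y-linked gene Eif2s3y split the mice into 153 at or above -0.10 and 142 at or below -4.16, and all 48 arrays with epididymis transcripts lay in the high set. Results are therefore also given within 3 sets, always in this order: the 48 mice with epididymis transcripts, 105 other mice high in Eif2s3y (Eif2s3y-high), and the 142 low in it (Eif2s3y-low). Over all probes, 944 of the 43365 array pairs opposed each other with an r under -0.3 (lowest -0.52), and each such pair bridged the epididymis split.

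The chemokine system varied widely between mice. Its genes had a median SD of 0.48 log2 units, against 0.29 over all kept probes. For 39 of 52 genes (75.0%) the central 90% of mice covered 2-fold or more, against 39.2% of all probes, and for 18 (34.6%) they covered 4-fold or more, against 7.62%. Members stand by their most variable probe. Taken the same way, all 11454 genes had a median SD of 0.31, and 45.4% and 10.3% of them covered 2-fold and 4-fold. Ligands had a median SD of 0.53 and receptors one of 0.34. Of the 52 genes, 29 lay above percentile 80 of all probes by SD and 5 below percentile 20. Arrays were not repeated, so the spread holds technical error as well.

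Among ligands, Cxcl13, which calls B cells into follicles, had its lowest value at -2.68, its median at -0.54 and its highest at 3.61, with an SD of 1.09 ± 0.05 (SE, n = 295 mice). Most mice lay below the pool and a few lay far above it. Ccl3, an inflammatory ligand of Ccr1, ran from -2.84 over a median of -0.19 to 2.51, and its central 90% of mice spanned 10.8-fold. Ccl2, the monocyte attractant, ran from -2.84 over a median of 0.01 to 1.59, a spread with its long tail below the pool. Ccl21a, a lymphatic and lymph node ligand of Ccr7, ran from -2.16 over -0.32 to 3.60, with its long tail above.

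Ccl4, Ccl9, Cxcl2, Ccl6, Ccl7 and Ccl8 had the next largest SDs among ligands, between 0.74 (Ccl7 and Ccl8) and 0.83 (Ccl4). Among receptors, Ccr6, carried by B cells and some T cells, had the largest SD of the system, 1.27 ± 0.07 (SE, n = 295). Its lowest, median and highest values were -3.38, -1.18 and 3.95, and its central 90% spanned 18.4-fold. Cxcr5, the receptor of Cxcl13, had an SD of 1.01 and ran from -2.46 over -0.75 to 3.57. In both receptors the median mouse lay below the pool and the highest mice lay far above it.

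A few genes had single mice far out. Cxcl5, a neutrophil attractant, had a median of -0.01 and a highest value of 3.17, with the next mouse at 2.26. Ccl27a, known from skin, reached 2.74 in 1 mouse, with the next at 1.22. Ccr4, a receptor of helper and regulatory T cells, was at -2.80 in 1 mouse and at -1.49 in the next, around a median of 0.12. These single values add to the SD of those genes, which was 0.47 for Cxcl5, 0.63 for Ccl27a and 0.31 for Ccr4.

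The smallest SDs were 0.15 for Ccr8, 0.16 for Ccl25, 0.16 for Ccr7, 0.20 for Cx3cr1 and 0.20 for Ccl1. Ccr7, the receptor that guides dendritic and naive T cells into lymph nodes, ran only from -0.45 over 0.12 to 0.65. A small spread in log ratios can be a steady level or a probe near background, and the deposited values do not tell which.

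**Figure D1:**
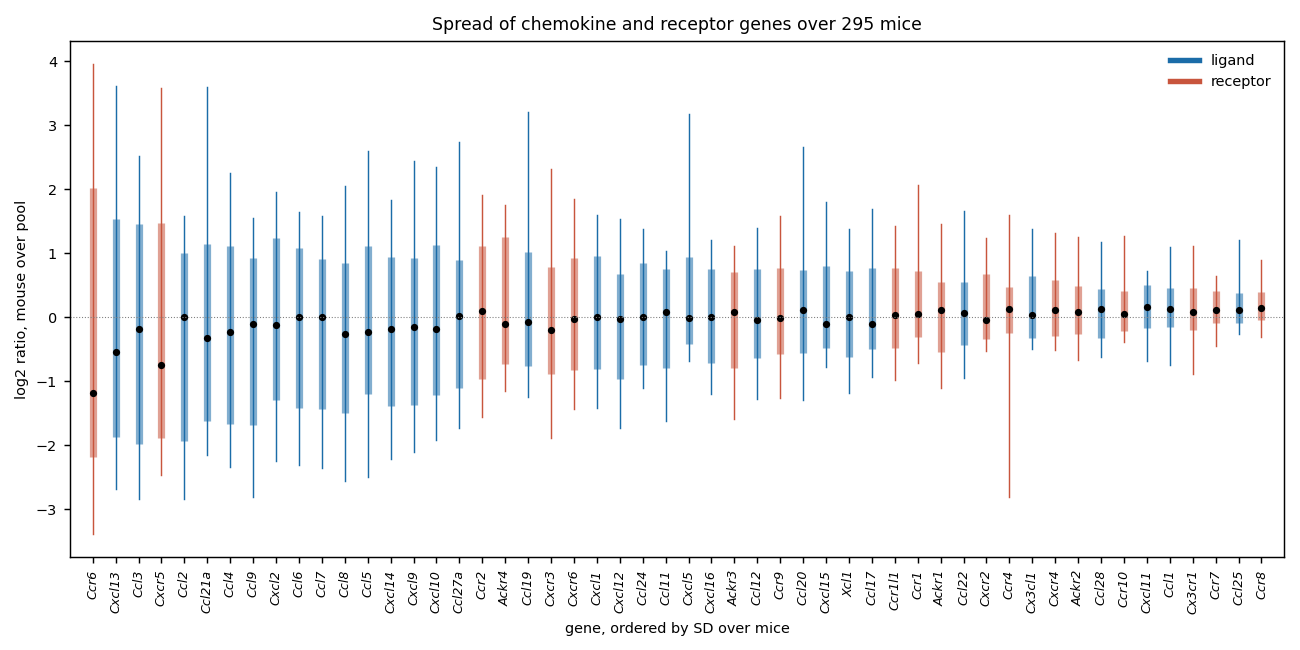
Log2 ratio (mouse over pool) of each of the 52 genes over 295 mice, ordered by SD. Thin lines run from the lowest to the highest mouse, thick bars cover the central 90% of mice, black points are medians, and colours mark ligands and receptors. Ccr6, with an SD of 1.27, stands at the left and Ccr8, with 0.15, at the right.

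Several probes were available for 3 genes. The probes of Ccl8 correlated at an r of 0.998 and those of Ccl12 at 0.990 over 295 mice. For Ccl21a, 2 probes correlated at 0.96, while the other had an SD of 0.26 and correlated at 0.31 and 0.40 with them. Ccl21a has near-identical copies in the mouse genome, so its values are uncertain as to the copy measured.

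Each gene was next set against marker scores that hold no chemokine or chemokine receptor. A score is a mouse's mean z-score over the measured markers of a cell type or response. The macrophage score used 14 of 18 listed markers, the T cell score 12 of 16, the B cell score 8 of 10, the adipocyte score 10 of 17, the type I interferon score 11 of 12 and the interferon gamma score 11 of 11. Mean correlations between the markers of a list lay from 0.45 for type I interferon to 0.65 for macrophages. A gene was called when its limma fit had a Benjamini-Hochberg adjusted p below 0.05 over all 22894 probes and an absolute r of at least 0.4.

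The macrophage score was followed by a block of CC ligands, namely Ccl2, Ccl3, Ccl4, Ccl6, Ccl7 and Ccl9, while Ccl5, Ccl8, Ccl11 and Ccl12 had r of 0.26, 0.25, 0.26 and 0.04 and were not called. In this fit 14 of the 52 genes rose (26.9%), against 8.92% of all probes, and 1 fell, against 6.39%. The risen genes were 10 ligands and 4 receptors, and the median r over the 52 genes was 0.18, against -0.02 over all probes. Within the 3 sets, r was 0.57, 0.34 and 0.22 for Ccl5 and 0.57, 0.49 and 0.30 for Ccl8. For Ccl11 it was 0.56, 0.29 and 0.40, and for Ccl12 0.66, 0.39 and -0.08. Most of these r were higher than those over all mice.

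Ccl9 and Ccl6, rodent ligands of Ccr1 made by myeloid cells, had the highest r. Ccl9 ran from -2.80 over a median of -0.10 to 1.55 over the mice. Its slope was 0.858 ± 0.025 log2 units per score unit (SE, n = 295), with an r of 0.90 and a limma adjusted p of 2.4e-103. The relation held in each set, with an r of 0.87 in the 48 mice with epididymis transcripts, 0.73 in the 105 Eif2s3y-high mice and 0.91 in the 142 Eif2s3y-low mice. Ccl6 ran from -2.31 over 0.01 to 1.65 and had an r of 0.89. The 2 ligands correlated with each other at 0.92.

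Ccl2 had an r of 0.86 and a slope of 0.953 ± 0.033 (SE, n = 295), with r of 0.76, 0.61 and 0.88 in the 3 sets. Ccl7, a neighbour of Ccl2 that also binds Ccr2, had an r of 0.76, with its lowest value of 0.43 in the Eif2s3y-high set. Ccl3 had an r of 0.81 and its chromosomal neighbour Ccl4, an inflammatory ligand, one of 0.75. Within the 3 sets, the r of Ccl3 lay between 0.724 and 0.812 and that of Ccl4 between 0.709 and 0.773.

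Among CXC ligands, Cxcl2, a neutrophil attractant, had an r of 0.77 with the macrophage score, Cxcl16, a membrane-bound ligand of Cxcr6, one of 0.77, Cxcl14 one of 0.58 and Cxcl1, another neutrophil attractant, one of 0.52. Cxcl1 was weaker within the sets, at 0.44, 0.33 and 0.19. Cxcl12, the stromal ligand that holds leukocytes and progenitors in place, was the 1 gene that fell, with an r of -0.50. Its r was -0.30, -0.60 and -0.55 within the sets. Without the arrays with epididymis transcripts 3 genes fell, Cxcl12 at -0.67, Ackr4 at -0.49 and Ccr7 at -0.44, and the share of all probes was not counted. The macrophage score correlated with the fibroblast score at an r of 0.65.

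Among receptors, Ccr1, carried by monocytes and macrophages, rose with an r of 0.64, Cxcr4, the receptor of Cxcl12, with 0.62, Ccr10 with 0.49 and Ccr2 with 0.41. The relation of Ccr2 was uneven, at 0.19 in mice with epididymis transcripts, 0.05 in Eif2s3y-high mice and 0.46 in Eif2s3y-low mice. With the Eif2s3y level as a covariate, the absolute partial r with the macrophage score fell below 0.4 for Ccr2, at 0.37, for Cxcl1, at 0.38, and for Cxcl12, at -0.33. It came to exceed 0.4 for Ccl11, at 0.45, for Ccr1l1, at 0.43, and for Ackr4, at -0.48. Cx3cr1, a receptor of monocytes and some tissue macrophages, was not called with any of the 6 scores or with Lep.

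The T and B cell scores were followed by the receptors Cxcr3, Cxcr5, Cxcr6 and Ccr6 and by the ligands Cxcl13, Ccl5 and Cxcl10, among others. With the T cell score 13 of 52 genes rose (25.0%), against 2.88% of all probes, and 0 fell, against 0.293%. At adjusted p below 0.05 alone, limma gave 26 higher and 5 lower. With the B cell score 12 rose (23.1%), against 3.11%, and 0 fell, against 0.734%, while 29 were higher and 7 lower at that adjusted p alone. For both scores, the share of all probes at that adjusted p alone was not counted, so these counts have no background. The T and B cell scores correlated with each other at an r of 0.92, so the 2 fits are close to the same comparison, and 11 genes were called higher in both. Of the 14 genes called higher in either, 1 (7.14%), Cxcr4, was also called higher with the macrophage score, against 19.9% of the 774 probes called higher in either.

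Cxcr3, the receptor of activated T cells, had the highest r with the T cell score, 0.87, and ran from -1.89 over -0.19 to 2.31 over the mice. Ccl5, a T cell and myeloid ligand, ran from -2.50 over -0.23 to 2.59 and had an r of 0.81. Both relations held within the 3 sets, with r between 0.87 and 0.91 for Cxcr3 and between 0.78 and 0.89 for Ccl5. Cxcr6, carried by effector and resident T cells, had an r of 0.61 and Xcl1, a product of activated T and NK cells, one of 0.57.

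Ccr6 had the highest r with the B cell score, 0.91, with a slope of 1.41 ± 0.04 log2 units per unit (SE, n = 295) and a limma adjusted p of 1.27e-110. Cxcr5 had an r of 0.89 and Cxcl13 one of 0.79. Within the sets, the lowest r of these 3 genes was 0.785, for Cxcl13 in the Eif2s3y-high mice. Mice with a high B cell score were few, and the rank correlations were lower than the r, at 0.82 for Ccr6, 0.78 for Cxcr5 and 0.74 for Cxcl13.

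Ccl19 and Ccl21a, the ligands of Ccr7 in lymph nodes, had r of 0.61 and 0.40 with the B cell score, but rank correlations of 0.37 and 0.14. For Ccl21a the r came to 0.32 once the 2 mice with the most extreme scores were left out. Their relations thus rested partly on the few mice with the highest B cell scores. Ccr7 itself was not called with either lymphocyte score (r of -0.11 and -0.21), and neither were Ccr4 (-0.07 and -0.08) and Ccr9 (0.29 and 0.34), which lymphocytes also carry. Cxcr2, the neutrophil receptor, had r of 0.53 and 0.59 with the T and B cell scores, with 0.19 and 0.19 in Eif2s3y-high mice but 0.58 and 0.70 in Eif2s3y-low mice.

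**Figure D2:**
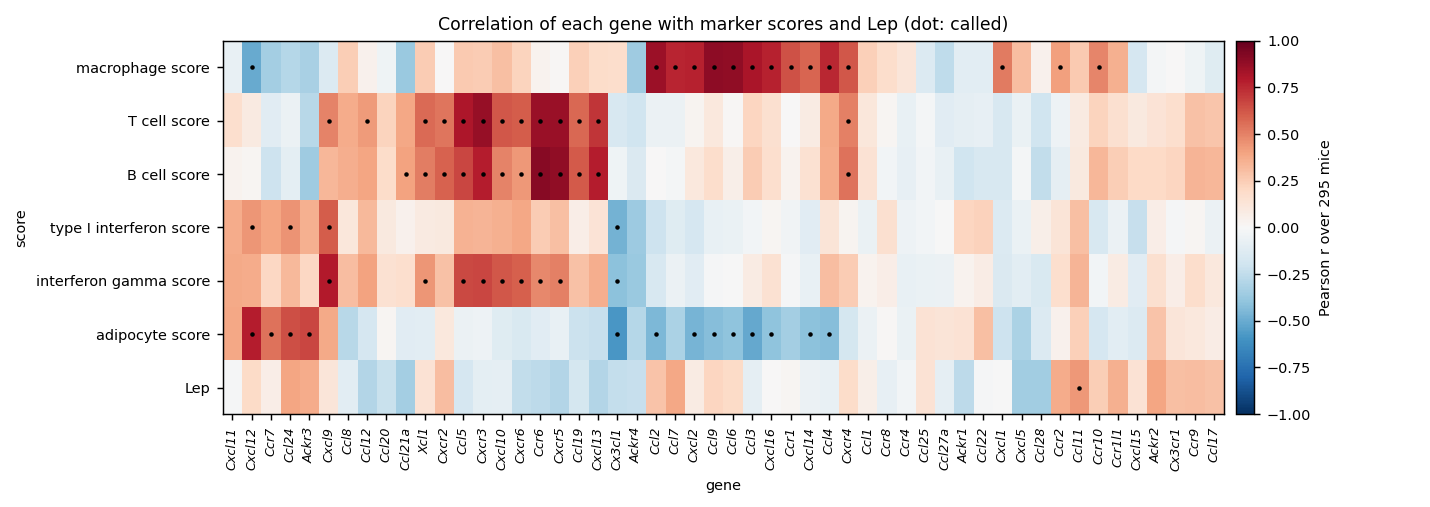
Pearson r over 295 mice of each of the 52 genes (columns, grouped by similarity) with the 6 marker scores and with Lep (rows). Dots mark called genes. The 14 genes that rose with the macrophage score and those that rose with the T and B cell scores form separate blocks, with Cxcr4 in both.

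The interferon-induced ligands were set against 2 response scores. With the interferon gamma score 8 of the 52 genes rose (15.4%), against 2.31% of all probes, and 1 fell (1.92%), against 2.93%. Cxcl9, the ligand of Cxcr3 that interferon gamma induces most selectively, ran from -2.11 over a median of -0.16 to 2.44 and had an r of 0.79, with 0.80, 0.77 and 0.62 within the sets. Cxcl10, another ligand of Cxcr3, had an r of 0.62 with this score and 0.62 with the T cell score. Cxcl11, the remaining ligand of Cxcr3, had an SD of 0.21 and an r of 0.38 with the interferon gamma score, which left it uncalled.

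The other genes that rose with the interferon gamma score were Cxcr3, Ccl5, Cxcr6, Cxcr5, Ccr6 and Xcl1, with r from 0.44 to 0.67, all of which also rose with the T cell score. The interferon gamma score correlated with the T cell score at an r of 0.65 and with the type I interferon score at 0.75. It was not among the scores later fitted together, so these relations were not separated. Cx3cl1, the membrane-bound ligand of Cx3cr1, fell with an r of -0.41. Ifng, the gene of interferon gamma, had an r of 0.71 with this score and 0.69 with the T cell score.

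With the type I interferon score 3 of the 52 genes rose (5.77%), against 2.55% of all probes, and 1 fell (1.92%), against 2.82%. With so few genes, the count that rose was not set apart from the background. Cxcl9 had an r of 0.60, Ccl24, an eosinophil attractant, 0.45, Cxcl12 0.44 and Cx3cl1 -0.48. Without the 48 arrays with epididymis transcripts only Cxcl9 was called. Within the sets, Ccl24 had r of 0.28, 0.09 and 0.03 and Cxcl12 r of 0.00393, 0.05 and 0.18, so their relation did not hold within them. Median log2 ratios of Cxcl9 were -0.92 in mice with epididymis transcripts, -0.27 in the Eif2s3y-high set and 0.11 in the Eif2s3y-low set. Those of Cxcl12 ran in the same order, at -0.66, -0.23 and 0.16.

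With the adipocyte score, Cxcl12 and its scavenger Ackr3 were among the genes that rose, and Cx3cl1, Ccl3, Cxcl2 and Ccl2 among those that fell. In this fit 4 genes rose (7.69%), against 11.7% of all probes, and 9 fell (17.3%), against 8.74%. Cxcl12 ran from -1.74 over -0.03 to 1.53 and had the highest r, 0.78, with a slope of 0.472 ± 0.022 (SE, n = 295) and r of 0.82, 0.73 and 0.49 within the sets. Cxcl12 also correlated with the array median at an r of 0.48, and its r with the adipocyte score was 0.77 after each array's median was subtracted. The adipocyte score correlated with the endothelial score at an r of 0.85, and beside it and the other scores the partial r of Cxcl12 with the adipocyte score was 0.20.

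Ackr3, the atypical receptor that takes up Cxcl12, rose with an r of 0.67, Ccl24 with 0.64 and Ccr7 with 0.54. The 9 genes that fell were all ligands. Cx3cl1 had the most negative r, -0.58, followed by Ccl3 with -0.51, Cxcl2 with -0.46 and Ccl2 with -0.45, and the rest were Ccl4, Ccl9, Cxcl14, Cxcl16 and Ccl6. All of them except Cx3cl1 had risen with the macrophage score, which itself correlated with the adipocyte score at an r of -0.49. With the Eif2s3y level as a covariate 4 genes rose and 3 fell, and Ccl2, Ccl4, Ccl6, Ccl9, Cxcl2 and Cxcl16 were no longer called. Shares of all probes were not counted with this covariate.

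Lep encodes leptin, the adipocyte hormone whose level follows fat mass. With Lep, 1 of the 52 genes rose (1.92%), against 7.34% of all probes, and 0 fell, against 3.83%. At limma's adjusted p below 0.05 alone 21 were higher and 14 lower, and the share of all probes at that p alone was not counted. Ccl11, or eotaxin, ran from -1.62 over 0.07 to 1.04 and had an r of 0.44, with 0.11 in mice with epididymis transcripts, 0.15 in Eif2s3y-high mice and 0.55 in Eif2s3y-low mice. Ackr2, Ccl24 and Ccl7 had r of 0.39 and lay just below the threshold. Without the arrays with epididymis transcripts, Ccl11 was at 0.38 and no longer called, and Ccl7 was called at 0.42. With the Eif2s3y level as a covariate 5 genes were called, Ccl7 at a partial r of 0.49, Ccl11 and Ccl2 at 0.42, and Ccl24 and Ccr2 at 0.41. Shares of all probes were not counted under these alternatives.

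**Figure D3:**
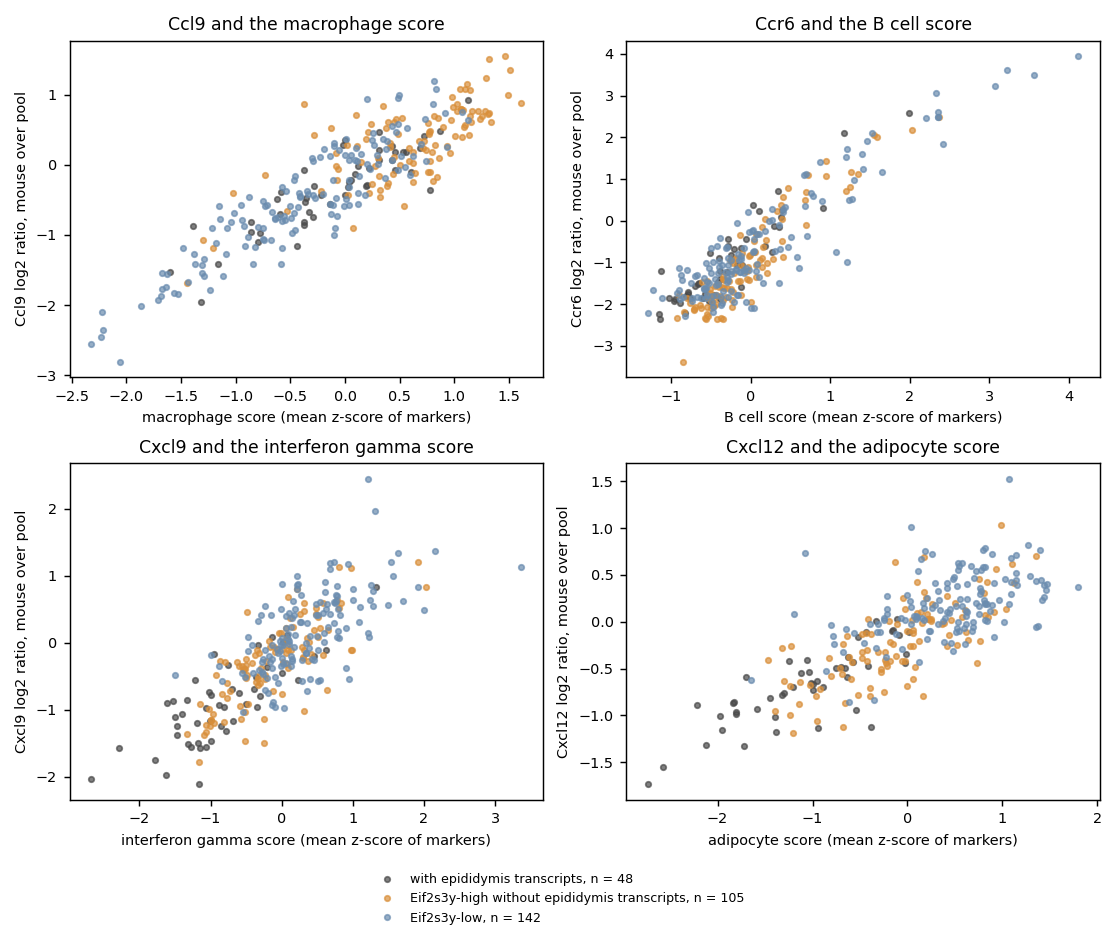
Log2 ratio (mouse over pool) of 4 genes against a marker score (mean z-score), 1 point per mouse, coloured by the 3 sets of mice. Ccl9 follows the macrophage score at an r of 0.90 and Ccr6 the B cell score at 0.91. Few mice have a high B cell score, and the rank correlation of Ccr6 with it is 0.82. Cxcl9 follows the interferon gamma score at 0.79 and Cxcl12 the adipocyte score at 0.78, with the 48 mice with epididymis transcripts low in Cxcl9 and Cxcl12.

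The relation of chemokines to Lep changed with the Eif2s3y level. In a limma fit of Lep, the Eif2s3y level and their product, 26 of 52 genes had a product term with an adjusted p below 0.05 (50.0%), against 34.0% of all probes. The term was lower in 18 genes (34.6%), against 12.8% of all probes, and higher in 8 (15.4%), against 21.2%. Without the arrays with epididymis transcripts it was higher in 3, Cxcl12, Ccr7 and Ackr1, and no longer called in Ackr3, Ccl20, Ccl22, Ccl28 and Cxcl11, while it was lower in 21, of which 15 were among the 18. Shares of all probes were not counted without those arrays. In the fit over all mice, a lower term means a slope on Lep that is smaller, or more negative, where Eif2s3y is high. The slopes within sets did not follow this for Ackr4, whose term was lower. They were 0.056 ± 0.144, 0.160 ± 0.094 and -0.039 ± 0.055 in the 3 sets (slope ± SE). Without the arrays with epididymis transcripts, the limma adjusted p of its term was 0.18.

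Ccl9, Ccl6, Ccl2 and Cxcl2, which followed the macrophage score, had positive slopes on Lep in Eif2s3y-low mice. Ccl9 changed by -0.314 ± 0.227 log2 units per log2 unit of Lep in the 48 mice with epididymis transcripts, -0.273 ± 0.120 in the 105 Eif2s3y-high mice and 0.945 ± 0.133 in the 142 Eif2s3y-low mice (slope ± SE). Its limma adjusted p for the product was 2.13e-05. Cxcl2 had slopes of -0.552 ± 0.245, -0.450 ± 0.147 and 0.683 ± 0.104 in the same order. Ccl2 had slopes of -0.183 ± 0.233, 0.162 ± 0.123 and 1.14 ± 0.14, and the last was the steepest in Eif2s3y-low mice among the 10 genes with the smallest p.

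The macrophage score moved the same way, with an r with Lep of -0.31 in mice with epididymis transcripts, -0.25 in Eif2s3y-high mice and 0.49 in Eif2s3y-low mice, and its part in these slopes was not tested. Ccl8, a ligand of Ccr8 in mice, followed Lep at an r of -0.38, -0.33 and 0.19. Cxcl12 ran the other way and had the smallest adjusted p, 6.78e-10, with r of 0.60, 0.24 and -0.33. Ackr1, the atypical receptor of small vein endothelium that binds many chemokines, had r of -0.27, -0.14 and -0.46.

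**Figure D4:**
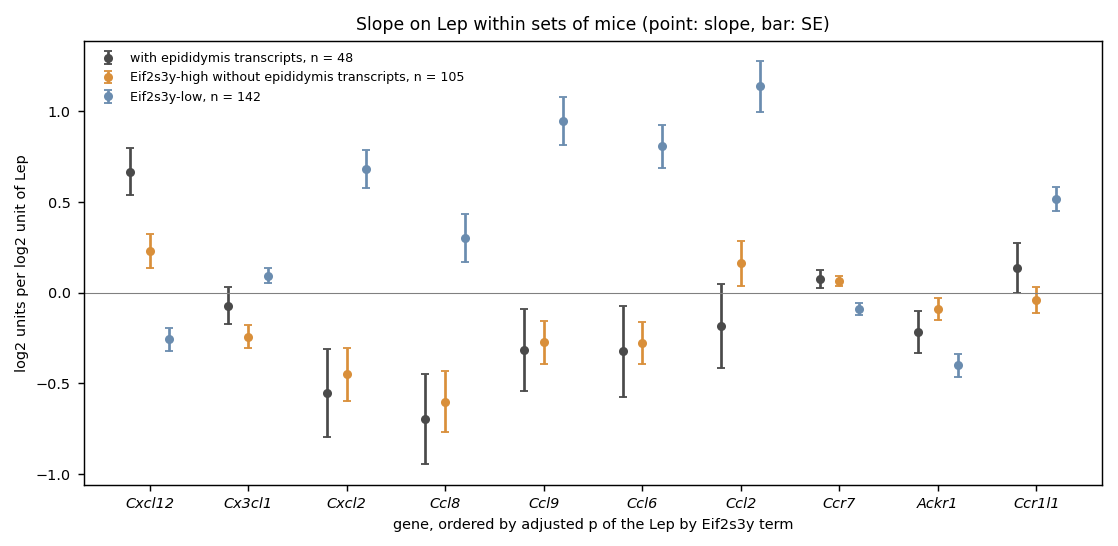
Slope on Lep (log2 units per log2 unit, point) with its SE (bar) within the 3 sets of mice, for the 10 genes with the smallest adjusted p of the Lep by Eif2s3y term. Cxcl12 has positive slopes in mice with epididymis transcripts and in Eif2s3y-high mice and a negative one in Eif2s3y-low mice, where Ccl2, Ccl9, Ccl6, Cxcl2 and Ccr1l1 have slopes above 0.5.

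Scores of 7 kinds were also fitted together, so that each r is over what the other scores leave, and a term was called at an adjusted p below 0.05 and an absolute partial r of at least 0.2. The T cell term was called higher in 8 genes (15.4%), against 1.72% of all probes, and lower in 0, against 0.363%. At limma's adjusted p below 0.05 alone it was higher in 8 genes and lower in 1, without a count over all probes. Ccl5 had a partial r of 0.69 with it, Cxcr3 0.65 and Cxcr6 0.63. The B cell term was called higher in 11 of the 52 genes, against 11.3% of all probes, and lower in 6 of the 52, against 6.76%. Its highest partial r belonged to Ccr6 with 0.62, Cxcr5 with 0.57 and Cxcl13 with 0.45, while Cxcr6 had -0.49. With the B cell score alone Cxcr6 had risen at an r of 0.43, so its sign changed. Ccl5 went from 0.67 to -0.41 and Cxcl10 from 0.50 to -0.31. As the T and B cell scores correlated at 0.92, this term covers only the small part of the B cell score that the T cell and other scores leave. Neither term was called for Cxcr4, with partial r of 0.17 and 0.13, or for Ccl12, with 0.11 and 0.04.

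The macrophage term was called higher in 19 of the 52 genes, against 24.5% of all probes, led by Ccl6 with 0.79, Ccl9 with 0.77 and Ccl2 with 0.74. It was lower in 9 of the 52, against 20.3%, with Ccl21a at -0.50. The fibroblast term was called higher in 11 of the 52, against 16.4%, with Cxcl14 at 0.42, Ccl11 at 0.37 and Cxcr2 at 0.36. It was lower in 1 of the 52, against 13.0%. The macrophage term of Cxcl14 was not called, at a partial r of 0.10. Cxcl14 and Ccl11 are known products of connective tissue cells.

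The endothelial term was called higher in 9 of the 52 genes, against 19.4% of all probes, with Cxcl12 at 0.47, Ccr10 at 0.33 and Ccr9 at 0.32. It was lower in 4 of the 52, against 8.15%. The type I interferon term was called higher in 11 of the 52, against 13.9%, with Ccl12 at 0.38 and Cxcr6 at 0.34. It was lower in 9 of the 52, against 16.9%, with Ccr10 at -0.36. The adipocyte term was called higher in 5 of the 52, against 12.3%, with Ackr3 at 0.30 and Ccr7 at 0.29. It was lower in 2 of the 52, against 7.74%, with Cx3cl1 at -0.36. Cxcl12 thus kept a relation to the endothelial markers and a smaller one to the adipocyte markers, and Ackr3 and Cx3cl1 kept one to the adipocyte markers, beside the other scores.

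Ligands were then set against the receptors they are known to bind. Of 39 listed pairs 30 were measured, over 15 receptors, and the other listed pairs were not analysed here. Of the 30 pairs, 10 were called higher, against 8.12% of all probes over the 15 receptors, and 0 lower, against 3.07%. At limma's adjusted p below 0.05 alone 15 were positive and 7 negative, without a count over all probes. The share of all probes called higher with a receptor was 6.7% for Ccr1, 6.37% for Ccr2, 3.07% for Cxcr3, 2.18% for Cxcr5 and 8.7% for Ackr3.

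Cxcl13 and Cxcr5 had the highest r, 0.78, and Cxcl13 ranked 68 among all probes by its r with Cxcr5. Ccl6 with Ccr1 had an r of 0.73, and Ccl6 ranked 14. Cxcl10 with Cxcr3 had an r of 0.72 and Ccl9 with Ccr1 one of 0.70. The other called pairs had r between 0.50 and 0.56. They were Ccl3 and Ccl7 with Ccr1, Ccl2 and Ccl7 with Ccr2, Cxcl9 with Cxcr3, and Cxcl12 with Ackr3.

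With the macrophage, T cell and B cell scores as covariates, 8 of these 10 pairs had an adjusted p below 0.05 and a partial r of at least 0.2, and 2 of them reached 0.4, Cxcl12 with Ackr3 at a partial r of 0.54 and Ccl6 with Ccr1 at 0.45. Partial r of the other 6 were 0.38 for Ccl7 with Ccr2 and for Ccl9 with Ccr1, 0.34 for Cxcl10 and 0.33 for Cxcl9 with Cxcr3, 0.32 for Cxcl13 with Cxcr5 and 0.27 for Ccl2 with Ccr2. Ccl3 and Ccl7 with Ccr1 had 0.09 and 0.08. The adipocyte and endothelial scores were not among these covariates, although Cxcl12 and Ackr3 both rose with the adipocyte score. Whether their pair keeps its r beside those scores was not tested. Cxcl12 and Ackr3 correlated at 0.63 in mice with epididymis transcripts, 0.58 in Eif2s3y-high mice and 0.19 in Eif2s3y-low mice. Cxcl12 and its signalling receptor Cxcr4 had an r of -0.22, and -0.49 without the arrays with epididymis transcripts. Ccr7 had r of -0.14 with Ccl19 and -0.0101 with Ccl21a, and Ccr4 had -0.30 with Ccl17 and -0.0090 with Ccl22. Cx3cr1 and Cx3cl1 had an r of 0.0107 over all mice, but 0.16 in mice with epididymis transcripts, -0.051 in Eif2s3y-high mice and 0.46 in Eif2s3y-low mice. Among the rest, Ccr10 had r of -0.30 with Ccl28 and -0.21 with Ccl27a. Cxcr2 had -0.22 with Cxcl1, -0.13 with Cxcl5 and 0.12 with Cxcl2. Ccr6 had 0.24 with Ccl20, its ligand in mucosa and skin, and Cxcr6 had 0.34 with Cxcl16. Cxcl11 had 0.21 with Cxcr3 and 0.28 with Ackr3, and Ccr9 had 0.18 with Ccl25, a gut ligand. Ccr8 had 0.12 with Ccl1 and -0.06 with Ccl8, Ccr1 had 0.04 with Ccl5 and Ccr2 had -0.09 with Ccl12. Listed partners thus ran from an r of 0.78 down to one of -0.30.

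Of the 1326 pairs of genes within the system, 182 (13.7%) had an r of at least 0.4 and 27 one of -0.4 or lower. The shares over pairs of all probes were not counted, so these counts have no background. Ccr6 and Cxcr5 were closest, at 0.95, followed by Ccl3 and Ccl4 at 0.93, Ccl6 and Ccl9 at 0.92, Ccl2 and Ccl7 at 0.92 and Ccl5 and Cxcr3 at 0.90. The genes of a pair share their arrays. Ackr1 and Ccl22, a macrophage and dendritic cell ligand of Ccr4, correlated at 0.86, and neither was called with any of the 7 regressors, the largest absolute r being -0.27 for Ackr1, with Lep, and 0.30 for Ccl22, with the adipocyte score. Their r was 0.85, 0.89 and 0.87 within the 3 sets.

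A further block, noted after the values were seen, gathered around Ccl17, the other ligand of Ccr4. Ccr9, Cxcl15, Cxcr2, Ackr2, Cx3cr1, Ccr10, Ccr1l1 and Xcl1 had an r of at least 0.4 with Ccl17, and the 36 pairs of these 9 genes had r from 0.25 to 0.81 with a median of 0.56. Ccl17 and Ccr9, the receptor of gut-homing lymphocytes, correlated at 0.81, and Ccl17 with Ccl28, a mucosal ligand of Ccr10, at -0.58. This block reached far outside the chemokine system. Ccl17 had an absolute r of at least 0.4 with 36.7% of all other probes. The median of that share was 26.3% over the 9 genes and 6.01% over the other 43. As the 9 genes were picked by their r with Ccl17, their shares are not independent of its own. The lowest share within the block was 7.65%, for Xcl1, and the highest outside it 18.4%, for Cxcl12.

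**Figure D5:**
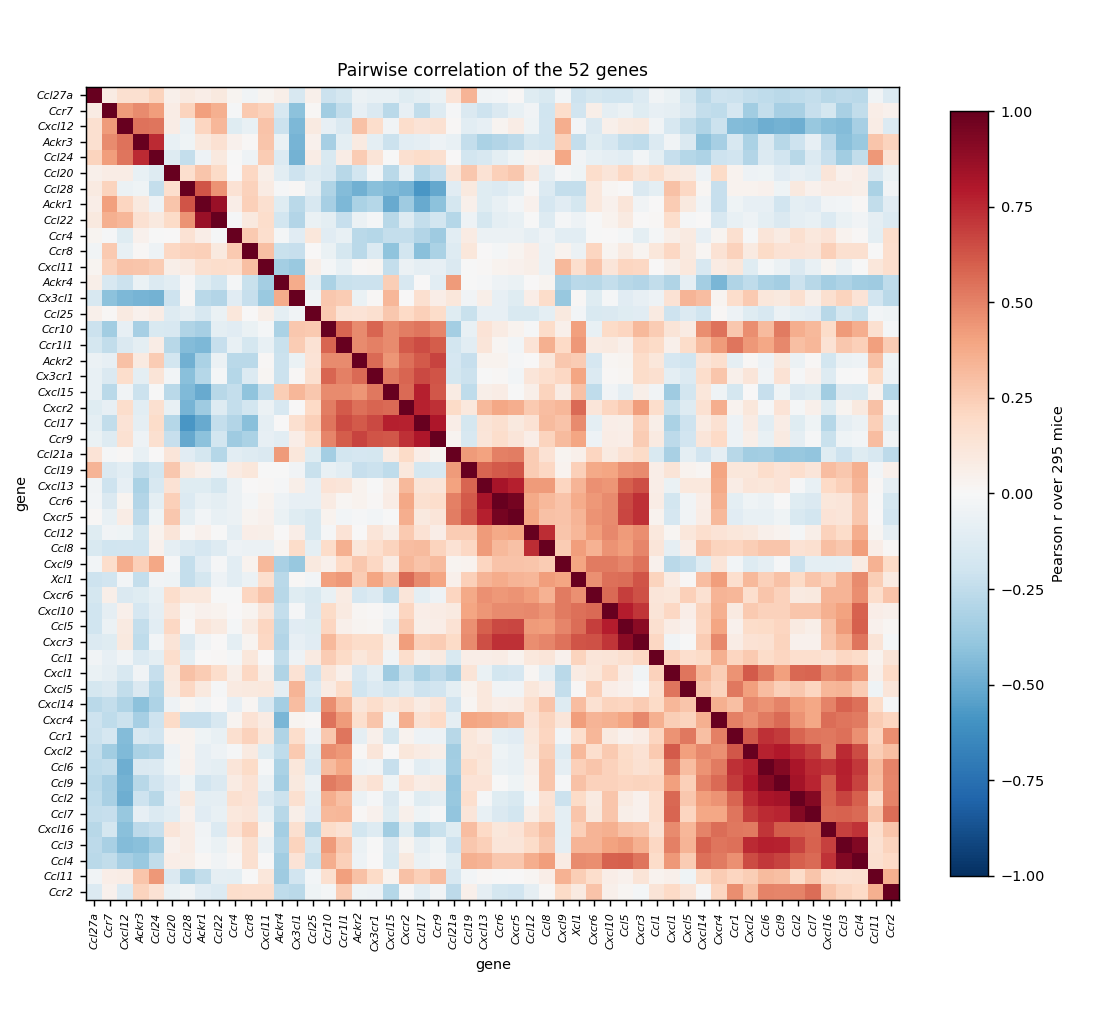
Pearson r over 295 mice between all pairs of the 52 genes, ordered by similarity. From the upper left, the blocks around Ccl17, around Ccr6 and Cxcr3, and around Ccl9 stand out in red; Ccl17 and Ccr9 reach 0.81, Ccr6 and Cxcr5 0.95, and Ccl6 and Ccl9 0.92.

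Mouse number, the only other label of a mouse, was also split into blocks of 106, 107 and 82 mice. In these blocks the r of Ccl9 with the macrophage score was 0.92, 0.86 and 0.86, and Ccr6 had 0.91, 0.94 and 0.85 with the B cell score. Cxcl9 had 0.84, 0.77 and 0.72 with the interferon gamma score, and Cxcl12 had 0.84, 0.77 and 0.69 with the adipocyte score. Ccl21a was uneven, with 0.28, 0.69 and 0.0839 with the B cell score, and Ccl19 fell to 0.34 in the last block, against 0.64 and 0.68 in the others.

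Many chemokine genes sit in clusters on a chromosome. Of the 52 genes 51 were placed on the RefSeq gene order, and 41 pairs had at most 3 protein-coding genes between them. These neighbours had a median r of 0.18, and 15 had an r of at least 0.4. The other 1285 pairs had a median of 0.05, and 167 had an r of at least 0.4. The 16 pairs with no protein-coding gene between them had a median of 0.35, and 8 had an r of at least 0.4. On chromosome 11, Ccl12 and Ccl8 lay next to each other and correlated at 0.74, while Ccl7 and Ccl11 correlated at 0.27 and Ccl11 and Ccl12 at 0.0195. On chromosome 5, Cxcl1 and Cxcl2, both with the kappaB letters shown above, correlated at 0.62, and Cxcl9 and Cxcl10 at 0.52. Cxcl10, which also held the kappaB letters, correlated with Cxcl1 at 0.21 and with Cxcl2 at 0.26. The part of these letters was not tested. Adjacent genes thus ranged from an r of -0.36, between Cxcl15 and Cxcl1, to 0.93, between Ccl3 and Ccl4.

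Among the 11402 genes outside the system, those most like each of the 6 most variable members were named by r. Ccr6 was closest to Cd79b, a B cell receptor chain, at 0.96, and Cxcr5 to the same gene at 0.94. Cxcl13 was closest to Pou2af1, a B cell transcription coactivator, at 0.85. Ccl3 was closest to Fcer1g, a myeloid Fc receptor chain, at 0.83 and Ccl2 to Clec4a2, a myeloid lectin, at 0.88. Cd79b and Fcer1g are themselves markers in the B cell and macrophage scores. Ccl21a was closest to Tbx1 at 0.84 and Mmrn1, a gene of lymphatic endothelium, at 0.74.

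Genes that act beside these ligands and receptors were set against the same scores. Of 12 measured genes of chemokine signalling, 9 rose with the macrophage score (8.92% of all probes did), led by Rgs1, a regulator of G protein signalling, at 0.94, Vav1, an exchange factor, at 0.88 and Dock2, which drives leukocyte migration, at 0.86. Of these 12, 4 rose with the T cell score, against 2.88% of all probes, and 6 fell with the adipocyte score, against 8.74%. Of 16 measured regulators, 6 rose with the macrophage score, against the same 8.92%, with the protease gene Mmp12 at 0.88 and the cytokine gene Tnf at 0.79. Of 5 other genes of the system, Ccrl2, a receptor that does not signal through G proteins, rose with the macrophage score at 0.77, as did the platelet chemokine genes Pf4 at 0.65 and Ppbp at 0.43.

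Of the 52 genes, 33 were called in at least 1 of the 7 single fits (63.5%), against 39.9% of all probes, and 19 in none, 8 of them receptors. The 19 were Ackr1, Ackr2, Ackr4, Ccr1l1, Ccr4, Ccr8, Ccr9 and Cx3cr1 among receptors, and Ccl1, Ccl8, Ccl17, Ccl20, Ccl22, Ccl25, Ccl27a, Ccl28, Cxcl5, Cxcl11 and Cxcl15 among ligands. Ackr4, the atypical receptor of Ccl19, Ccl21a and Ccl25, had median values of 1.02 in the 48 mice with epididymis transcripts, -0.40 in the 105 Eif2s3y-high mice and -0.08 in the 142 Eif2s3y-low mice. It also correlated with the array median at an r of -0.61 and with the mouse number at -0.42, and the part of epididymis tissue in its level was not tested.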

How the data were processed

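Adipose RNA of 295 mice was measured on 2-colour arrays, with the mouse in Cy3 and the pool in Cy5 per the labels. The deposited values end at -2 and 2 and are read here as log10 ratios. The log base, centring and direction, and the background correction, are not given in the sources used here. Ratios are read as mouse over pool: Eif2s3y ran from -6.51 to 1.77 on the log2 scale, and its low mode of 142 mice lay below 0. Fold sizes and SDs rest on the log10 reading, while r, adjusted p and calls do not. Array medians ran from -0.0521 to 0.0387 and array means from -0.00991 to 0.0250 in deposited units. The per-sample text speaks of 330 mice and the series text of 295.

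Multiplication by 3.32 turned the values into log2 ratios. Of 23387 probes, 22894 were measured in at least 90% of mice, and 7762 gaps were filled with the probe mean. A gene stands for its most variable probe with 1 symbol, named through the platform annotation. All probes were fitted in R 4.3.3 (limma 3.58.1), and p-values were adjusted over all of them by the Benjamini-Hochberg method. Tables and figures were made in Python 3.11.15 with pandas 2.3.3, matplotlib 3.10.9, SciPy 1.17.1 and NumPy 2.4.6. On simulated data, the limma fit on the macrophage score found 46% of probes with a true r of 0.2 and 100% of those with 0.5. Probes were counted there at an adjusted p below 0.05 alone, without the threshold on r used for calls. The simulated noise was independent between probes, so these shares do not describe the calls given above. The number of arrays limits the precision.

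The members, marker lists, pair list and tests were chosen with earlier results of these data known. Values were named by rule: the 12 largest and 5 smallest SDs, the 8 most positive and 4 most negative r among called genes of a fit, the 3 largest absolute partial r per term, every measured pair of the list, and the 10 smallest adjusted p of the product term. Other genes are named as exceptions, chosen after their values were seen. The alternatives tried were array centring, leaving out arrays with epididymis transcripts, Eif2s3y as a covariate, mouse number blocks, gaps left missing, ranks, and leaving out the 2 most extreme mice.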

Additional observations from a re-analysis of the deposited data

Results flagged for a closer look

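The slope on Lep changed with the Eif2s3y level, and the 10 genes of the chemokine system with the smallest adjusted p of the product term are given here (limma, Benjamini-Hochberg over all probes). The value was 6.78e-10 for Cxcl12, 3.09e-07 for Cx3cl1, 1.48e-05 for Cxcl2, 1.78e-05 for Ccl8 and 2.13e-05 for Ccl9. It was 0.000125 for Ccl6, 0.000145 for Ccl2, 0.00018 for Ccr7, 0.000242 for Ackr1 and 0.000299 for Ccr1l1. Slopes had opposite signs in both Eif2s3y-high sets and in Eif2s3y-low mice for Cxcl12, Cx3cl1, Cxcl2, Ccl8, Ccl9, Ccl6 and Ccr7, and 1 sign in all sets for Ackr1. The slopes within single sets were not tested. Of all probes 34.0% had such a term, so a change of slope was common in this tissue.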

How the results depend on the processing

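Of 87 named results under their alternatives, 526 of 569 values kept direction and call, 43 kept direction but were no longer called, and 0 reversed. Counts of called genes moved by over 1.5 times in these cases, and the cause was not tested. Shares of all probes were counted in the main fits only, so counts under the alternatives have no background. Without the arrays with epididymis transcripts, 1 gene was called with the type I interferon score, against 4. Without them 3 genes fell with the macrophage score, against 1, and the product term of Lep and Eif2s3y was higher in 3, against 8. With Eif2s3y as a covariate, 7 were called with the adipocyte score, against 13, 7 for the fibroblast term, against 12, and 5 with Lep, against 1. With array medians subtracted, 2 were called with Lep. Counted in each direction alone, 28 of 176 counts moved by over 1.5 times, 19 of them by 1 or 2 genes. The larger moves not yet given were a lower B cell term in 10 genes, against 6, a lower fibroblast term in 4, against 1, and a lower endothelial term in 7, against 4, without the arrays with epididymis transcripts. The endothelial count was also 7 with array medians subtracted, and a lower macrophage term was called in 5, against 9, with Eif2s3y as a covariate. With the macrophage, T cell and B cell scores as covariates, 2 of 10 pairs kept an absolute r of at least 0.4 and 8 one of at least 0.2, the threshold used for partial r elsewhere. The median SD of 0.48 was 0.14 read as log2, 0.21 read as natural log and 0.44 without the arrays with epididymis transcripts. Calls with the macrophage score stayed between 14 and 17 genes, with the T cell score between 12 and 15 and with the B cell score between 10 and 13. No paired analysis was possible because the labels name 1 group of different mice.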
